A study of Mus musculus with 10 samples.

Results

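The Reg genes encode small secreted proteins built around a C-type lectin fold. The genes described are Reg1, Reg3b, Reg3g and Reg4, taken by name from the gene identifiers of both deposited tables, which makes 4 of 23364 genes. The other mouse family members in the tables, Reg2, Reg3a and Reg3d, are given beside them for comparison. Reg3b and Reg3g are antibacterial lectins that intestinal epithelial cells release towards the lumen, and their transcription is known to be raised through the IL-22 receptor and STAT3 and through microbial sensing by MyD88. Reg4 marks the deep crypt secretory cells of the mouse colon, goblet-related cells that lie beside the stem cells, and is also made by enteroendocrine cells. Reg1 and Reg2 are best known from the acinar cells of the pancreas, where they are released with the digestive enzymes.

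RNA was sequenced from crypts shaken off the mouse distal colon with EDTA, after selection of poly(A) RNA, in 10 libraries. Mice of the AOM+DSS group (3 libraries) received azoxymethane (AOM, a carcinogen that alkylates DNA) followed by dextran sulfate sodium (DSS, which injures the colon lining), a treatment that the submitters call cancer. Mice of the DSS group (4 libraries) received DSS without AOM, which they call inflammation. Control mice (3 libraries) were untreated. No source used here gives strain, genotype, age, doses or times, or says that each library is a different animal, and p-values therefore reflect the spread among these libraries, which may be technical.

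The deposited tables hold group means of normalized reads (reads divided by a size factor per library). The reads of each library were worked back from those means where exactly 1 combination of whole reads gave the printed mean. Libraries are lettered by falling depth in each group, and which replicate number of the labels a letter stands for is unknown. Size factors ran from 0.905 to 1.34 in AOM+DSS, from 0.645 to 1.27 in DSS and from 0.944 to 1.04 in control. All 16 colon epithelial markers had reads in every group, led by Krt8, a keratin of simple epithelia, with means of 57412 normalized reads in AOM+DSS, 73034 in DSS and 69346 in control. Of these 16, Hoxb13 was called lower in AOM+DSS and none was called in DSS, where 2 had an unadjusted p under 0.05 in the authors' deposited table.

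Because 6 of the 7 family members lie together on chromosome 6, in the order Reg3b, Reg3d, Reg3a, Reg2, Reg1 and Reg3g, while Reg4 lies on chromosome 3, the promoters of the 4 genes are shown to compare a clustered pair that moved together with the relatives that did not. Each is the RefSeq sequence on build GRCm38.p6, 250 bases before to 50 bases after the transcription start, read 5′ to 3′ on the strand of the gene: Reg3b at chr6:78370635-78370934 (plus strand), Reg3g at chr6:78468825-78469124 (minus strand), Reg4 at chr3:98221906-98222205 (plus strand) and Reg1 at chr6:78425733-78426032 (plus strand). The expression data were mapped to mm9, so these coordinates were not used to read them. Capitals mark matches on either strand to 3 motifs. TTCNNNGAA is the form of sites bound by STAT factors. TATAAA is the core promoter element that positions the start. TTTATNG is the form of sites bound by the gut factors of the CDX family.
Reg3b: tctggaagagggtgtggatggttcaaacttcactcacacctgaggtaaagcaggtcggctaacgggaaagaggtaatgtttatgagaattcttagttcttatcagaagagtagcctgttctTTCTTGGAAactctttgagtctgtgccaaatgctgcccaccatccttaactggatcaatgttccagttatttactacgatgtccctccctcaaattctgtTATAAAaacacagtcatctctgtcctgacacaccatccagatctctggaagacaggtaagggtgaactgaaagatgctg
Reg3g: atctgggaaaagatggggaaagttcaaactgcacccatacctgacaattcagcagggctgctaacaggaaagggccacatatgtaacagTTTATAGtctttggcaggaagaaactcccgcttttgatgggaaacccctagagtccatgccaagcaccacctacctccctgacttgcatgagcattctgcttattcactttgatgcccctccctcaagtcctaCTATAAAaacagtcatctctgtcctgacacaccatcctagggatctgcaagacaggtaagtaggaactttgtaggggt
Reg4: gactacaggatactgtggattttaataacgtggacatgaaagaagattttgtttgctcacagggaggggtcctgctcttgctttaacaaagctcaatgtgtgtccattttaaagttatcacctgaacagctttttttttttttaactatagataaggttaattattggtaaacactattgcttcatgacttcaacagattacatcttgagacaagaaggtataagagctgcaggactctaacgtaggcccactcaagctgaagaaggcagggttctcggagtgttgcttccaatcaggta
Reg1: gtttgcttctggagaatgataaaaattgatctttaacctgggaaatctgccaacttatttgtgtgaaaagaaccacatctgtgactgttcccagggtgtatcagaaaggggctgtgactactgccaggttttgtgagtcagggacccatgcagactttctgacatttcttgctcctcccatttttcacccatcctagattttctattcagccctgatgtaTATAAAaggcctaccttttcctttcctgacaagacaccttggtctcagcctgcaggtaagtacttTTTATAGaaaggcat

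The pair on the outer ends of the cluster, Reg3b and Reg3g, shared a run of 29 identical bases near the transcription start, against at most 14 in any other pair of the 7 promoters. TTCNNNGAA was present in Reg3b, 129 bases before the start, and in Reg3d, not shown here, 238 bases before it. It was present in 8.3% of 32851 mouse promoters of this length. TATAAA was present on the strand of the gene 29 bases before the start in Reg3b, 27 in Reg3g and 30 in Reg1 and in Reg2. On either strand it was present in 13.6% of promoters. TTTATNG was present in Reg3g and Reg1 and in 10.9% of promoters, and each of these matches overlaps a match to TATAAA on the other strand. The Reg4 window held none of the 3 motifs, which says only that these letters are not in this window. Such matches are descriptions of the sequence, and binding was not measured.

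Reg3b and Reg3g, barely present in control crypts, were among the most abundant transcripts of AOM+DSS crypts, while Reg4, one of the most abundant transcripts of control crypts, was lower after both treatments. Reg3b had 5665, 20104 and 3100 normalized reads in AOM+DSS libraries a to c, against 2095, 372, 1093 and 2223 in the DSS libraries a to d and 3.86, 24.7 and 28.6 in the control libraries a to c. The 3 groups did not overlap, and AOM+DSS library b stood highest of all 10 libraries. Reg3g had 5077, 12618 and 2509 normalized reads in AOM+DSS, against 1604, 1024, 1083 and 2434 in DSS and 10.6, 52.3 and 5.30 in control. Again no library of one group reached the range of another, and AOM+DSS library b was the highest, although the lowest AOM+DSS library and the highest DSS library lay close together. Group means were 9623 ± 9167 (SD, n = 3), 1446 ± 876 (n = 4) and 19.1 ± 13.3 (n = 3) for Reg3b in AOM+DSS, DSS and control. For Reg3g they were 6735 ± 5254, 1536 ± 653 and 22.8 ± 25.8 in the same groups. The spread within AOM+DSS was thus about as large as the mean, and the highest AOM+DSS library exceeded the lowest 6.49-fold for Reg3b and 5.03-fold for Reg3g.

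Reg4 had 5463, 3315 and 6548 normalized reads in the AOM+DSS libraries a to c, and 16453, 15173 and 23664 in the control libraries. The highest AOM+DSS library lay well below the lowest control library, and library b, the highest for Reg3b and Reg3g, was the lowest for Reg4. In DSS the authors' deposited table gives a Reg4 mean of 8613 normalized reads, which lies between 5109 ± 1645 in AOM+DSS and 18430 ± 4577 in control (SD, n = 3 each), but the reads of single DSS libraries could not be recovered at this level. Whether DSS and control libraries overlapped for Reg4 is therefore unknown.

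**Figure D1:**
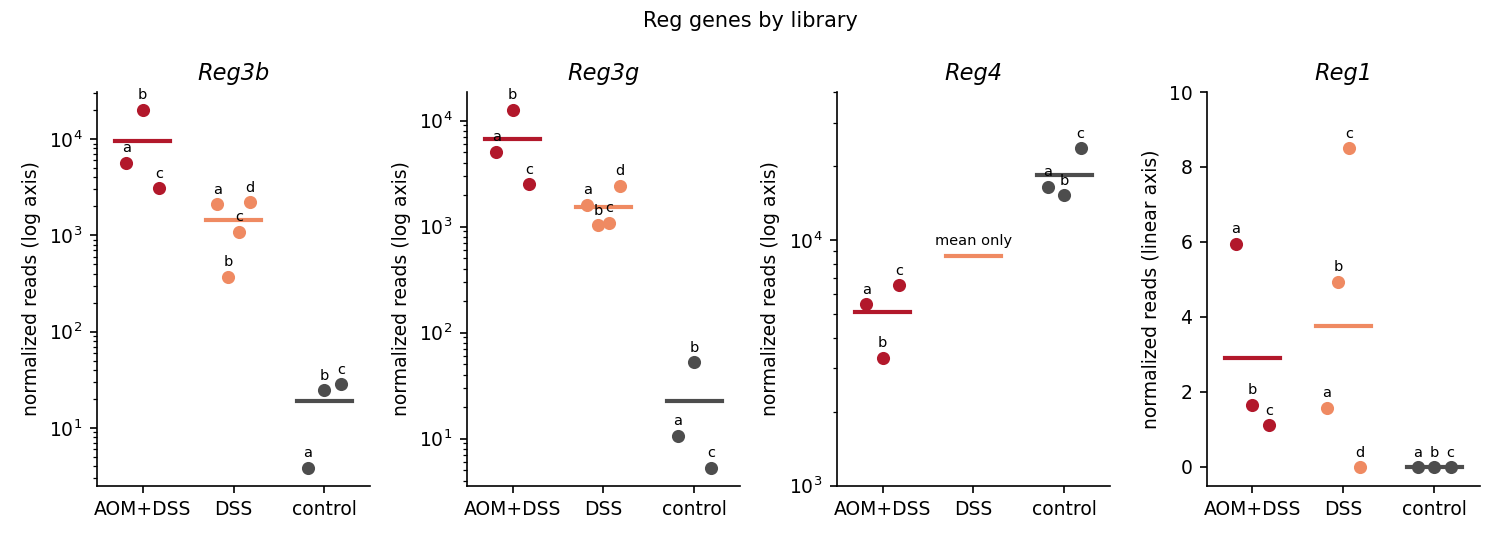
Normalized reads of Reg3b, Reg3g, Reg4 (log axes) and Reg1 (linear axis) in each library of AOM+DSS, DSS and control, with bars at the group mean and letters naming the libraries; for Reg4 in DSS only the authors' mean is drawn. Reg3b and Reg3g step down across the 3 groups without overlap, Reg4 stands highest in control, and Reg1 stays under 10 normalized reads throughout.

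Among genes with reads, ordered by group mean, Reg3b ranked 212 of 17906 in AOM+DSS, 3571 of 17557 in DSS and 12625 of 17339 in control. Reg3g ranked 438 in AOM+DSS, 3359 in DSS and 12442 in control. Reg4 went the other way, with rank 678 in AOM+DSS, 313 in DSS and 68 in control. Per kilobase of the longest coding transcript in GENCODE M21, the group mean was 12290 normalized reads for Reg3b, 8735 for Reg3g and 5004 for Reg4 in AOM+DSS. In DSS these means per kilobase were 1846, 1993 and 8436, and in control 24.3, 29.5 and 18051. The summed level of Reg3b and Reg3g per kilobase was 4.2 times that of Reg4 in AOM+DSS, 0.455 times in DSS and 0.00298 times in control. By group mean per kilobase, the most abundant Reg transcript was thus Reg3b in AOM+DSS and Reg4 in control. This did not hold in every AOM+DSS library. Reg3b exceeded Reg4 per kilobase in library a (7235 against 5351) and in library b (25675 against 3247). In library c Reg4 was the higher, at 6413 against 3959 for Reg3b.

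In the comparison of AOM+DSS with control, 3 of the 4 genes passed the authors' test (DESeq, Benjamini-Hochberg adjusted p under 0.05), 2 higher and 1 lower, where 8.89% of 18334 genes tested passed (5.54% higher and 3.35% lower). By the authors' deposited table Reg3b rose by 8.98 on the log2 scale, a fold of 505.1 (adjusted p = 0.00664). Reg3g rose by 8.21, a fold of 296 (adjusted p = 0.000211, authors' deposited table). Reg4 fell by 1.85 on the log2 scale, to 0.277 of the control mean (adjusted p = 8.2e-06, authors' deposited table). For all 3 genes the AOM+DSS libraries did not overlap with control, as held for 20.7% of genes with recovered reads in the higher direction and 17.8% in the lower. Crypt preparations are bulk samples, so fewer Reg4-expressing cells and less Reg4 RNA per cell cannot be told apart. Among 11895 genes with reads in both groups and a mean of 50 or more, the fold change of Reg3b was the 10th highest, that of Reg3g the 17th highest and that of Reg4 the 89th lowest. The recovered libraries gave like sizes in limma on log2(normalized reads + 1): 8.84 ± 0.835 for Reg3b, 8.43 ± 0.825 for Reg3g and -1.88 ± 0.270 for Reg4 (SE, 3 against 3 libraries; limma adjusted p = 0.00185, 0.00204 and 0.00632). Without AOM+DSS library b the limma differences were 8.08 for Reg3b, 7.83 for Reg3g and -1.60 for Reg4, and all 3 passed (limma adjusted p = 0.00516, 0.00763 and 0.011).

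In the comparison of DSS with control, Reg3g and Reg4 passed the authors' test, 1 higher and 1 lower of 4, where 4.39% of 18099 genes passed (2.61% higher and 1.78% lower). By the authors' deposited table Reg3g rose by 6.08 on the log2 scale, a fold of 67.5 (adjusted p = 0.00932). Reg4 fell by 1.10 on the log2 scale, to 0.467 of the control mean (adjusted p = 0.01, authors' deposited table). For Reg3b the authors' deposited table gives a log2 fold change of 6.25 (fold 75.9), as large as that of Reg3g, with an adjusted p of 0.0954 and an unadjusted p of 0.00549. The log2 difference of Reg3b in limma on the recovered reads was 6.25 ± 0.755 (SE, 4 against 3 libraries) and passed (limma adjusted p = 0.00337, where limma called 5.7% of 15135 genes). The call for Reg3b in DSS thus depends on the test, while all 4 DSS libraries lay above all 3 control libraries, as 9.1% of genes with recovered reads did. Among 11711 genes filtered likewise, the fold change of Reg3b was the 8th highest, that of Reg3g the 9th highest and that of Reg4 the 218th lowest.

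**Figure D2:**
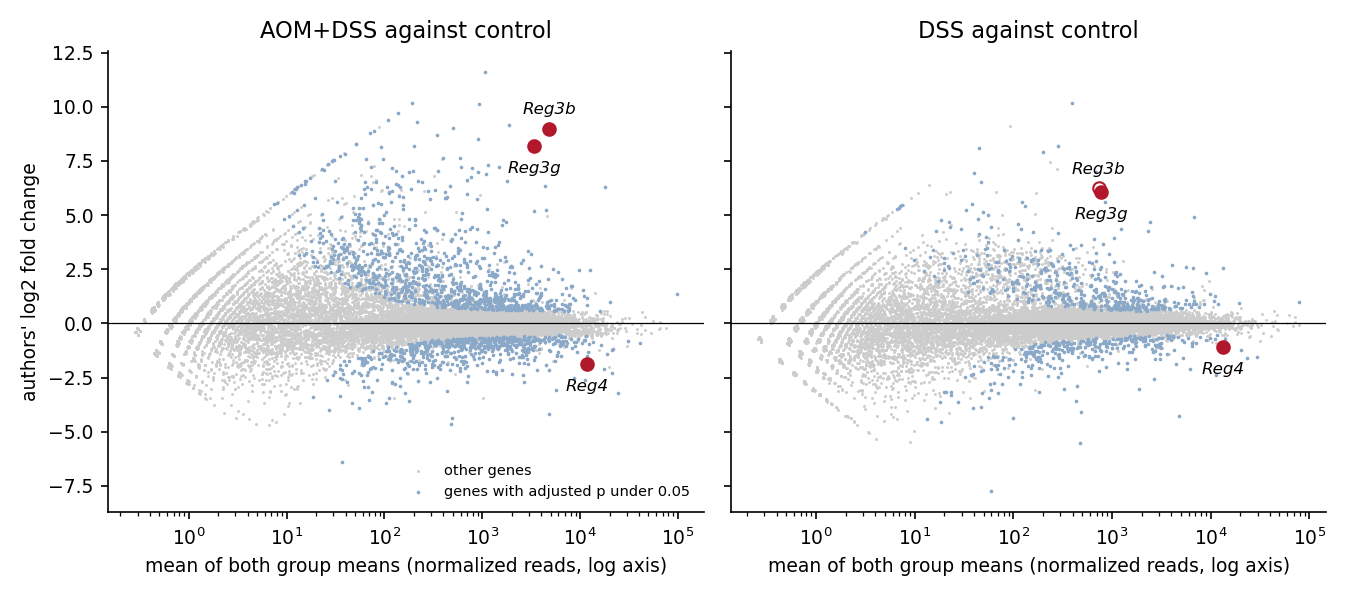
Authors' log2 fold change of each gene with reads in both groups (vertical axis) against the mean of both group means (log horizontal axis), for AOM+DSS against control (left) and DSS against control (right); red circles are Reg3b, Reg3g and Reg4, filled where the adjusted p is under 0.05. In AOM+DSS Reg3b at 8.98 and Reg3g at 8.21 rank 10th and 17th highest of 11895 genes with a mean of at least 50. Reg3b in DSS at 6.25 is the only open circle, and Reg4 lies at -1.85 and -1.10.

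Both comparisons share the 3 control libraries. AOM+DSS was also compared with DSS directly, by limma over the 15416 genes whose reads were recovered in both groups, which leaves out Reg4 and most other highly expressed genes. None of the 3 Reg genes tested passed at a limma adjusted p under 0.05, where 2.51% of genes passed; 2 of the 3 had an unadjusted p under 0.05. Reg3b differed by 2.59 ± 0.729 on the log2 scale (SE, 3 against 4 libraries; limma adjusted p = 0.126), higher in AOM+DSS. Reg3g differed by 1.91 ± 0.500 in the same direction (limma adjusted p = 0.0989). For both genes every AOM+DSS library lay above every DSS library, as 9.06% of genes did. Without AOM+DSS library c the difference of Reg3g was 2.47 and passed (limma adjusted p = 0.0305), and without library b it was 1.31 (limma adjusted p = 0.285). Library c also carried the highest sum of 14 fibroblast and smooth muscle markers, 16065 normalized reads, against 4503 and 5695 in AOM+DSS libraries a and b, 1702 to 2605 in DSS and 1348 to 4440 in control; the part of this in the Reg3g difference was not tested.

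Reg3b and Reg3g kept a ratio between 0.913 and 1.59 to each other in every treated library but DSS library b. The ratio of Reg3b to Reg3g normalized reads was 1.12, 1.59 and 1.24 in AOM+DSS libraries a to c, and 1.31, 0.363, 1.01 and 0.913 in DSS libraries a to d. DSS library b stood apart in this ratio. It was the lowest DSS library in Reg3b, at 372 normalized reads against 1093 in library c. It was also the lowest in Reg3g, but only narrowly, at 1024 against 1083 in library c. In control the ratio was 0.364, 0.472 and 5.4 at 56 reads of Reg3b and 69 of Reg3g over 3 libraries. Across all 10 libraries the Pearson r of log2(normalized reads + 1) was 0.961 between these genes, a description that rests on libraries from 3 groups with very different levels. Their longest coding transcripts are 74.4% identical over 739 aligned bases, with a longest shared run of 35 bases and no shared stretch of 50 bases; no pair of the 7 family members shares such a stretch. Read length and counting rule were not known, so reads split between both genes could not be assessed further.

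**Figure D3:**
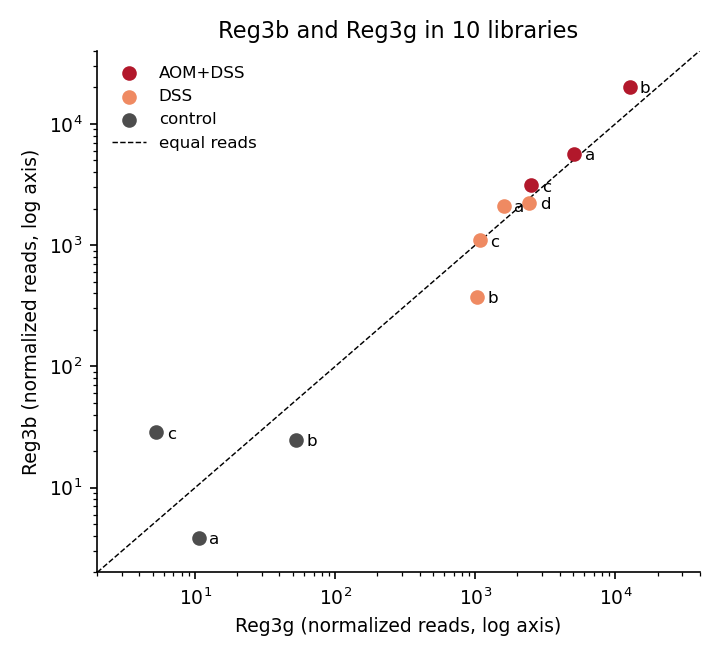
Reg3b against Reg3g in normalized reads (both axes log), 1 point per library with its letter, coloured by group, with a dashed line at equal reads. AOM+DSS libraries lie above the line at ratios of 1.12 to 1.59, DSS library b falls below it at 0.363, and the control libraries scatter at low counts.

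Reg1 was near the limit of detection. It had 8, 2 and 1 reads in AOM+DSS libraries a to c, 2, 6, 6 and 0 reads in DSS libraries a to d, and 0 reads in all 3 control libraries. The mean was 2.90 normalized reads in AOM+DSS and 3.755 in DSS, from 11 and 14 reads. These means are 2.9 and 3.75 times the 1.00 normalized reads that correspond to 3 reads over the control group. That floor covers counting error only, and the error of the treated means is not in it, so these ratios are not firm lower bounds. The authors' deposited table gives adjusted p = 0.598 in AOM+DSS and 0.688 in DSS, so Reg1 did not pass in either comparison. Between AOM+DSS and DSS the log2 difference was -0.04 ± 0.793 (SE, limma adjusted p = 0.989), too wide to tell a rise from a fall.

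Within DSS, the normalized reads of Reg1 and of its neighbour Reg2 ranked the libraries in the same order as those of most pancreatic digestive enzymes. For Reg1 this order rests on 14 reads, and libraries b and c tied at 6 reads each. Only their size factors set c above b. Reg2 had 7, 1 and 0 reads in AOM+DSS libraries a to c, 4, 9, 13 and 0 in DSS libraries a to d, and 0 in control. Ctrb1, the chymotrypsinogen of acinar cells, had 26.8, 4.96 and 6.63 normalized reads in AOM+DSS, 34.0, 78.3, 205 and 7.75 in DSS, and 0 in control. In DSS all 3 genes, in normalized reads, were highest in library c, followed by b, a and d. In AOM+DSS all 3 were highest in library a, but Reg1 and Reg2 were lowest in library c and Ctrb1 was lowest in library b. Pnlip, the pancreatic lipase, had 15.8, 46.1, 143 and 4.65 normalized reads in the 4 DSS libraries, and Cpa1, a carboxypeptidase, had 11.1, 22.2, 73.6 and 1.55. The order c, b, a, d held for 9 of 12 pancreatic acinar markers with a DSS mean of at least 3 reads and no ties, and for 1.68% of 11765 genes chosen in the same way; this order was looked for after the values of Reg1 were seen. The 7 acinar markers that had 0 reads in control and reads elsewhere summed to 66.2, 6.62 and 15.5 normalized reads in AOM+DSS libraries a to c, and to 77.5, 191, 544 and 18.6 in the 4 DSS libraries.

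Of 19 acinar markers, none was called higher in either comparison by the authors' test, while limma called 3 of 15 higher in AOM+DSS and 4 of 14 in DSS, Ctrb1 in both; Cela1 and Clps were called lower in AOM+DSS and Cela1 in DSS. In DSS 10 of the 16 tested had an unadjusted p under 0.05. The list is mixed in its control levels. Cela1, Clps and Zg16, the last also a goblet cell lectin, averaged 8441, 606 and 17491 normalized reads in control. Ctrb1, Pnlip and Cpa1 were at 0 there. With folds against 0 set at their bound, the median log2 fold change of the acinar markers was 1.8 over 14 genes in AOM+DSS and 3.61 over 15 genes in DSS, against 0.0265 and 0.0176 over all genes. Reg3b and Reg3g did not follow these genes: DSS library d, lowest in all 9 of those markers, was the highest DSS library for both. The part of RNA from pancreas in the Reg1 and Reg2 reads was not tested.

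**Figure D4:**
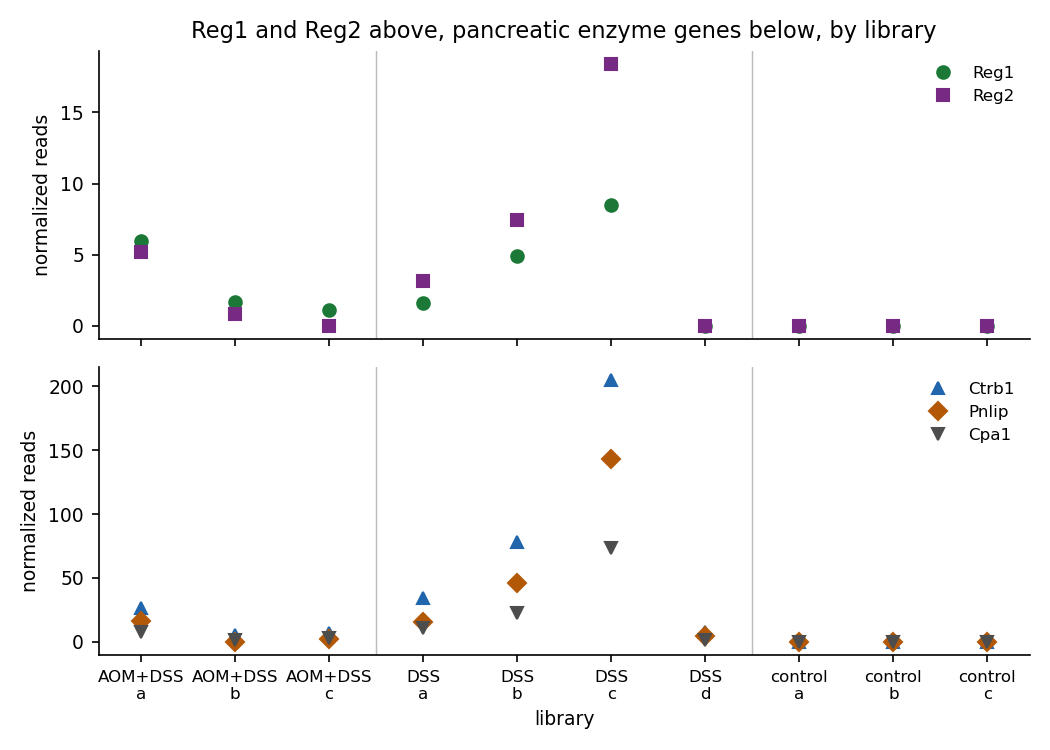
Normalized reads per library of Reg1 and Reg2 (upper panel) and of the pancreatic enzyme genes Ctrb1, Pnlip and Cpa1 (lower panel, another scale), with AOM+DSS left, DSS in the middle and control right. All 5 genes peak in DSS library c, step down through b and a, are lowest of the DSS libraries in d and are at 0 in control.

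The remaining family members were also rare. Reg3a had 3, 61 and 2 reads in AOM+DSS libraries a to c, 3, 3, 1 and 0 in DSS and 0 in control, so that its highest library was again AOM+DSS library b. Of its 66 reads in AOM+DSS, 61 were in that library alone, so the mean of 18.3 normalized reads rests on it, and the authors' deposited table gives adjusted p = 0.488. Reg3d had 1 read over the AOM+DSS libraries, 3 over the DSS libraries and 0 in control.

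The signals that act upstream of Reg3b and Reg3g were described by a list of 22 genes of IL-22 and IL-6 type cytokines, their receptors and STAT3. In AOM+DSS against control 7 rose, none fell and 15 did not pass, with a median log2 fold change of 0.584. In DSS 3 rose, none fell and 19 did not pass, with a median of 0.472 over 21 genes. For this list and those that follow, 8.89% of all genes tested passed the authors' test in AOM+DSS and 4.39% in DSS. Osm (oncostatin M, a cytokine of the IL-6 family) rose by 6.44 in AOM+DSS (adjusted p = 0.000356) and by 4.84 in DSS (adjusted p = 0.00793), in the authors' deposited table. Osmr, its receptor, had 477, 429 and 262 normalized reads in AOM+DSS, against 138, 110, 77.9 and 141 in DSS and 14.5, 30.6 and 4.24 in control. It rose by 4.57 in AOM+DSS (adjusted p = 7.48e-15) and by 2.83 in DSS (adjusted p = 2.41e-06) in the authors' deposited table, and was higher in AOM+DSS than in DSS by 1.72 ± 0.289 (SE, limma adjusted p = 0.0186). Socs3, a feedback inhibitor that STAT3 induces, rose by 1.52 in AOM+DSS (adjusted p = 0.000652) and by 1.07 in DSS (adjusted p = 0.0395) in the authors' deposited table.

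By the authors' deposited table Stat3 itself rose by 0.61 on the log2 scale in AOM+DSS (adjusted p = 0.0439), and in DSS its log2 fold change was 0.31 (adjusted p = 0.445). Pim1, a kinase induced by STAT3, rose by 1.93 in AOM+DSS (adjusted p = 0.00589) in the authors' deposited table. Il22, the cytokine best known for inducing the Reg3 genes, had means of 0.892 normalized reads in AOM+DSS, 0.766 in DSS and 0 in control, near or under the floor of 3 reads, so a difference was not detectable at this depth. Il22ra1, the epithelial subunit of its receptor, averaged 2899 normalized reads in AOM+DSS, 2744 in DSS and 2125 in control and did not pass (adjusted p = 0.207 and 0.644 in the authors' deposited table).

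**Figure D5:**
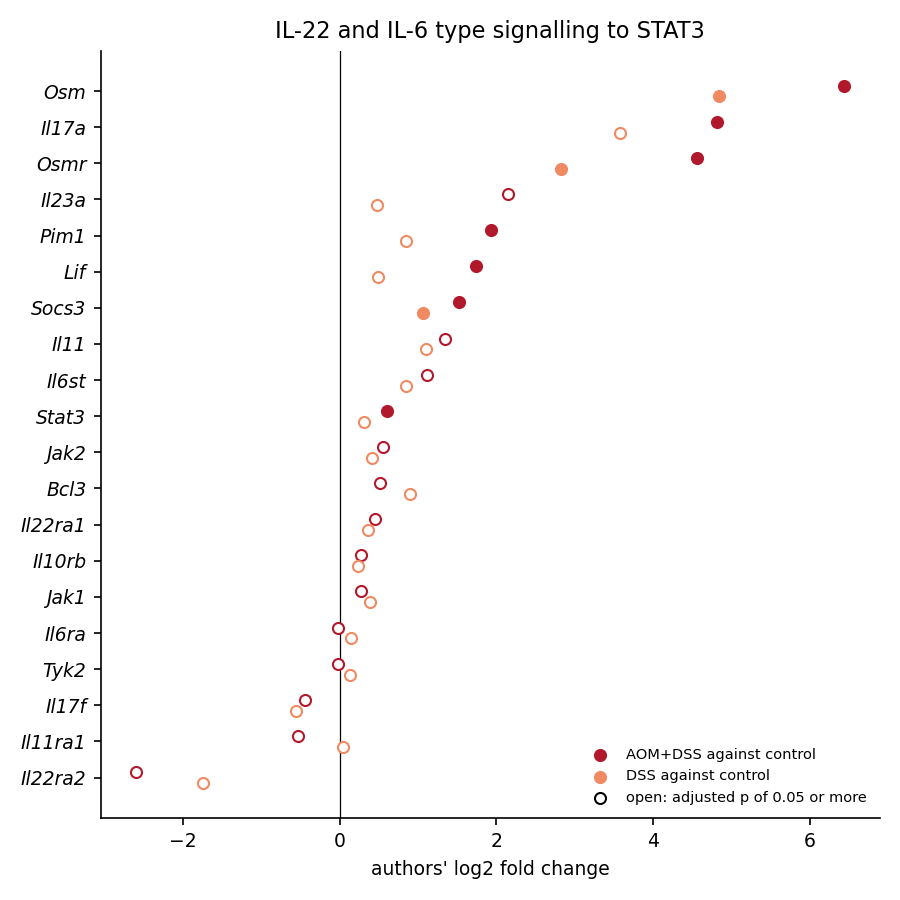
Authors' log2 fold change against control (horizontal axis) for the 20 of 22 listed IL-22, IL-6 and STAT3 pathway genes with reads in all groups, in AOM+DSS (dark red) and DSS (orange), filled where the adjusted p is under 0.05. Osm at 6.44 and 4.84, Il17a at 4.82 and 3.58 and Osmr at 4.57 and 2.83 have the 3 highest values, Il17a being filled in AOM+DSS and open in DSS, Stat3 at 0.61 is filled in AOM+DSS alone, and Il22 and Il6, with no control reads, are not drawn.

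Of 16 pattern recognition genes, 3 rose and 1 fell in AOM+DSS, and 2 rose in DSS, with median log2 fold changes of 0.247 and 0.291. Tlr2, a receptor of bacterial lipoproteins, rose by 2.55 in AOM+DSS and by 2.09 in DSS (adjusted p = 5.42e-13 and 2.24e-09 in the authors' deposited table). Nod2, a cytosolic sensor of muramyl dipeptide, rose by 1.97 in AOM+DSS and by 1.74 in DSS (adjusted p = 5.61e-07 and 6.04e-06 in the authors' deposited table). Nod1, its relative, fell by 0.74 in AOM+DSS (adjusted p = 0.0328) in the authors' deposited table.

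Among 23 other genes listed for epithelial defence, 8 rose in AOM+DSS and 6 in DSS, and none fell. Median log2 fold changes were 2.05 and 0.467 with folds against 0 at their bound. Lyz2 and Camp of this list are also among the neutrophil and macrophage markers, so these values are not of epithelial transcripts alone. Slpi, a protease inhibitor with antibacterial activity, averaged 1607 normalized reads in AOM+DSS, 1514 in DSS and 119 in control, and rose by 3.75 and 3.67 (adjusted p = 9.77e-15 and 2.43e-15) in the authors' deposited table. Nos2, the inducible nitric oxide synthase, rose by 5.22 and 4.26 in the same order (adjusted p = 4e-13 and 2.24e-09 in the authors' deposited table). Lcn2, which binds bacterial siderophores, rose by 7.63 in AOM+DSS (adjusted p = 0.0123), and its log2 fold change in DSS was 3.84 (authors' deposited table, adjusted p = 0.324). The goblet cell lectin Zg16 averaged 16980 normalized reads in AOM+DSS, 20315 in DSS and 17491 in control and did not pass (adjusted p = 1 and 0.811 in the authors' deposited table).

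Reg4 was set beside 21 genes of deep crypt secretory and goblet cells and 18 of enteroendocrine cells. Of the secretory genes 1 rose, 4 fell and 16 did not pass in AOM+DSS (median log2 fold change -0.345), and 1 rose, 1 fell and 19 did not pass in DSS (median 0.0553). Creb3l4, a transcription factor of the secretory pathway, fell in both, by 0.92 in AOM+DSS and by 0.81 in DSS (adjusted p = 0.00377 and 0.0136 in the authors' deposited table). Dll1, a Notch ligand of secretory cells, fell by 1.04 in AOM+DSS (adjusted p = 0.00884) in the authors' deposited table. Clca3, a goblet cell product, fell by 0.91 in AOM+DSS (adjusted p = 0.0119) in the authors' deposited table. Muc2, the goblet cell mucin, averaged 57576 normalized reads in AOM+DSS, 70884 in DSS and 53388 in control, and Kit, a marker of deep crypt secretory cells, averaged 865, 856 and 1275; neither passed in AOM+DSS or DSS. Cd44, listed as a surface protein of crypt base cells, rose by 2.23 in AOM+DSS (adjusted p = 5.5e-05) in the authors' deposited table.

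No enteroendocrine gene passed in either comparison by the authors' DESeq test, with 3 of 18 at an unadjusted p under 0.05 in AOM+DSS and 1 in DSS, and median log2 fold changes of -0.501 and 0.0845. The 3 in AOM+DSS were Chga, which was lower, and the peptide genes Tac1 and Cck, which were higher, with log2 fold changes of 1.78 and 1.75 (adjusted p = 0.058 and 0.138, authors' deposited table). Limma called both of these higher in AOM+DSS (limma adjusted p = 0.0264 and 0.033), and Cck in DSS (limma adjusted p = 0.0172). Chga, chromogranin A, had a log2 fold change of -0.86 in AOM+DSS (adjusted p = 0.0976) and -0.45 in DSS (adjusted p = 0.777; both from the authors' deposited table). The sum of the 18 genes was 4686, 2779 and 6203 normalized reads in AOM+DSS libraries a to c, 4877 to 6378 in DSS and 4870 to 6708 in control, so AOM+DSS library b, lowest in Reg4, was also lowest in this sum. It was the highest library for Tac1, with 874 normalized reads, against 390 and 336 in AOM+DSS libraries a and c, 194 to 306 in DSS and 104 to 198 in control. The part of enteroendocrine cell number in the Reg4 difference was not tested.

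Of 15 genes linked to REG protein reception or action, 3 rose in AOM+DSS and 1 in DSS, and none fell, where 8.89% and 4.39% of all genes passed. Median log2 fold changes were 0.32 and 0.339. Cd44, which is also in the secretory list above, is among the 3 that rose in AOM+DSS. Extl3, a glycosyltransferase reported as a receptor of REG proteins, averaged 1182 normalized reads in AOM+DSS, 1197 in DSS and 946 in control and did not pass (adjusted p = 0.507 and 0.501 in the authors' deposited table). Egfr, the epidermal growth factor receptor, rose by 1.23 in AOM+DSS and by 0.81 in DSS (adjusted p = 7.07e-05 and 0.0209 in the authors' deposited table).

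Some markers of other cell types differed between the groups. Of 17 neutrophil and macrophage markers tested, 10 rose in AOM+DSS and 4 in DSS. Their summed level was 5380, 11310 and 4268 normalized reads in AOM+DSS libraries a to c, 7174, 4811, 1110 and 988 in DSS libraries a to d and 413, 2056 and 288 in control. AOM+DSS library b was again the highest. Within DSS the order was not that of the Reg3 genes. Libraries c and d lay within the control range of this sum and had 1093 and 2223 normalized reads of Reg3b. The sum includes Ptprc, which is not restricted to neutrophils and macrophages. For DSS, Ptprc made up 4607 of it in library a, 1232 in b, 576 in c and 422 in d. Library a of DSS also had the highest sums of B and plasma cell markers (10774) and of T and innate lymphoid cell markers (7139). The order of the sum within DSS is therefore not that of neutrophils and macrophages alone. Elane was at 0 in all libraries and Mpo averaged 0.524 normalized reads in AOM+DSS, 0.206 in DSS and 0 in control.

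Paneth cell products, which are normally made in the small intestine beside Reg3 lectins, rose for 6 of 11 tested genes in AOM+DSS and for 0 of 6 in DSS by the authors' DESeq test (1 of those 6 at an unadjusted p under 0.05). Lyz1 (lysozyme) had 7785, 15912 and 2342 normalized reads in AOM+DSS libraries a to c, against 83.8 to 273 in DSS and 33.9 to 247 in control. Mmp7, the protease that activates defensins, had 3267, 6783 and 1075 in AOM+DSS, against at most 109 in DSS and 1.93 to 10.9 in control. All 4 DSS libraries lay above every control library for Mmp7, with a log2 difference of 3.17 ± 0.720 (SE, limma adjusted p = 0.0366), although the authors' deposited table gives adjusted p = 0.414. Within AOM+DSS, Lyz1 and Mmp7 were highest in library b and lowest in library c, as Reg3b and Reg3g were. Against DSS, Lyz1 was higher by 5.65 ± 0.624 and Mmp7 by 5.65 ± 0.713 (SE, limma adjusted p = 0.00311 and 0.00594). The summed level of 12 Paneth markers was 16594, 31226 and 7093 normalized reads in AOM+DSS libraries, 863 to 2643 in DSS and 983 to 2085 in control. This sum leaves out Ang4, an angiogenin of Paneth and goblet cells, whose DSS reads were not recovered and whose level ran the other way, with means of 2451 normalized reads in AOM+DSS, 5808 in DSS and 8086 in control (log2 fold change -1.72 in AOM+DSS, adjusted p = 0.285, authors' deposited table). Over all 13 markers the group means summed to 20755 normalized reads in AOM+DSS, 7450 in DSS and 9634 in control. The alpha-defensins Defa5, Defa17 and Defa20 were at 0 in every DSS and control library; they belong to a family of near-identical copies, so reads may be split among them. The part of these cell types in the Reg3b and Reg3g differences was not tested.

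The genes most like each Reg gene in pattern were found over all 10 libraries among 8943 genes with recovered reads and a mean of 50 or more. For Reg3b these were Pxdc1 (Pearson r = 0.983), Arid5a (0.98), an RNA-binding protein known to stabilize Stat3 and Il6 mRNA, and Sprr2h (0.979), a small proline-rich protein. For Reg3g they were Ckb (0.991), the brain-type creatine kinase, Ifi47 (0.989), an interferon-inducible GTPase, and Eif4e3 (0.989). These genes share the libraries and the step between control and treated groups with the Reg genes, and the correlations describe these libraries. Ckb had 1246, 1370 and 1095 normalized reads in AOM+DSS, 639, 594, 445 and 898 in DSS and 67.6, 153 and 56.1 in control, the same order of groups as Reg3g over a narrower range. For Reg1, at so few reads, the closest was Ergic2 (0.923, among 8944 genes). For Reg4, whose DSS reads were not recovered, the closest by both log2 fold changes were Ybx2 (distance 0.0518 on the log2 scale), Ttll6 (0.105) and Sytl1 (0.117), a synaptotagmin-like protein of vesicle transport, among 11898 genes. Sytl1 averaged 1042 normalized reads in AOM+DSS, 1850 in DSS and 3666 in control.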

How the data were processed

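The submitters' processing notes name TopHat2 2.0, the mm9 genome build and DESeq. Read counter, annotation, strand setting and the version of the authors' DESeq: not given in the sources used here. The library kit does not mark strand. Each of the 2 deposited tables covers 23364 genes and sets a treated group against control. Its signal values, mean normalized counts over all libraries and per group, were made by the authors, per the file headers. The fold is the authors' ratio of group means and log2 its logarithm, per the file headers. The p-values are the authors' own, Benjamini-Hochberg adjusted, per the file headers. One header names 4 AOM+DSS replicates and the labels 3; the overall mean fits 3.

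Reads of each library were worked back from the means, printed to 15 digits, by a search for the only combination of reads that gives the mean. This held for 99.9% of genes in AOM+DSS, 87.3% in DSS (27.9% of the mean total, lowest mean not recovered 1152) and 99.8% in control. The search and the fits were tested on simulated data. Libraries could not be tied to label numbers.

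Genes were called at the authors' adjusted p under 0.05. As no deposited table compares AOM+DSS with DSS, limma 3.58.1 with a trend (R 4.3.3) was fitted to log2(normalized reads + 1) of recovered genes, adjusted over all genes recovered in both groups. Alternatives were limma for the authors' test, a mean of at least 50, an adjusted p under 0.01, 10 added to both means, a pseudocount of 10, TMM scaling and leaving out each library.

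Up to 3 called genes with the smallest adjusted p were named per list, or the 2 with the highest mean where none was called, beside all Reg genes and the 3 genes most like each. Genes outside this rule (Tac1, Cck, Ctrb1, Pnlip, Cpa1, Mmp7, Il22, Il22ra1, Stat3, Pim1, Lcn2, Zg16, Dll1, Clca3, Muc2, Kit, Extl3, Mpo, Elane and those called beyond the first 3) were chosen after their values were seen. The Reg genes and the 15 gene lists were chosen with earlier results of these data known. Pnliprp1 and other listed genes that are not named enter the counts. Promoters are from RefSeq (GRCm38.p6), and all 7 Reg genes matched by symbol. Some genes named by this rule are not reported here.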

Additional observations from a re-analysis of the deposited data

How the results depend on the processing

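Of 122 alternatives over 14 results, 90 kept the direction, the side of the threshold and, for counts of genes, a value within 1.5 times. Reg3b, Reg3g and Reg4 against control in AOM+DSS, and Reg3g against control in DSS, kept their calls under every alternative run. The log2 difference of Reg3b in DSS passed in limma (6.25) and without each library (5.41 to 6.80, limma adjusted p 0.00427 to 0.023), although the authors' adjusted p of 0.0954 did not; the cause was not tested. Reg3g between AOM+DSS and DSS ranged from 1.31 to 2.47 without single libraries and passed only without AOM+DSS library c. Reg1 had no finite fold against control; in limma it ranged from 1.24 to 2.10 in AOM+DSS (limma adjusted p 0.0316 to 0.159, passing without library c), and between AOM+DSS and DSS it ranged from -0.64 to 0.45 around -0.04, with its sign turned in 4 of 7 omissions. The genes called in DSS, 794, were 462 at an adjusted p under 0.01 and 144 to 1001 without single libraries (lowest without control library a). Those called in AOM+DSS, 1630, were 981 at the stricter threshold, 3153 in limma and 531 to 4361 without single libraries (lowest without control library a, highest without AOM+DSS library c). Between AOM+DSS and DSS, 387 became 146 with a mean of at least 50 and 80 to 610 without single libraries (lowest without AOM+DSS library a, highest without library c).

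For Reg4 in DSS its reads were not recovered, no limma fit or omission of a library was run, and its call rests on the authors' test alone. No paired analysis was possible because the columns carry no replicate numbers and the recovered libraries cannot be tied to the labels. Recovery in DSS favours genes of low and middle abundance, which limits the comparison of AOM+DSS with DSS.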

Other observations

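The authors' DESeq test called 0 of 10 markers of B and plasma cells in either comparison, with 0 at an unadjusted p under 0.05 in AOM+DSS and 3 in DSS. Limma called 0 of 10 in AOM+DSS and 4 of 8 higher in DSS. The sum of 8 markers with recovered reads in all groups was 573, 282 and 1140 normalized reads in AOM+DSS libraries a to c, 10774, 3503, 2165 and 2215 in DSS libraries a to d and 222, 1128 and 139 in control. This sum leaves out Xbp1 and Igj, the immunoglobulin joining chain of plasma cells, and Igj averaged 2410 normalized reads in AOM+DSS, 2175 in DSS and 750 in control. DSS library a, highest in the 8 markers, had ordinary Reg3b and Reg3g for its group.

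Gata3, a transcription factor listed with T and innate lymphoid cells, rose by 4.57 in AOM+DSS and by 3.26 in DSS (authors' deposited table, adjusted p = 9.78e-08 and 0.000236). Of 14 fibroblast and smooth muscle markers, Vim rose and Pdgfrb fell in AOM+DSS, and Pdgfrb fell in DSS. Of 12 small intestinal enterocyte markers, Fabp6, an ileal bile acid binding protein, fell in AOM+DSS by 1.63 (authors' deposited table, adjusted p = 0.00521). Limma called 3 of 12 lower in AOM+DSS. In DSS the authors' test called none, with 2 at an unadjusted p under 0.05, and limma called 0 of 10.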
